A study of Mus musculus with 48 samples.

Results

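A set of 10 genes of the cytosolic heat shock chaperone system, out of the 12423 genes listed at both the transcript and the footprint level, was followed in mouse kidney around the clock. They were the Hsp70 genes Hspa8, Hspa1a and Hspa1b, the Hsp110 gene Hsph1, the J-domain protein genes Dnaja1, Dnajb1 and Dnajb4, the Hsp90 genes Hsp90aa1 and Hsp90ab1, and the Hsp90 co-chaperone gene Ahsa2. They were chosen on their daily profiles in these same libraries, so the 24-h and 12-h terms, the timing and the translation efficiencies of these 10 genes are given below as descriptions, without a test. Kidneys came from male C57BL/6JRj mice, 11 to 12 weeks of age, kept in 12 h of light and 12 h of darkness and sacrificed every 2 h. Collection spanned 2 daily cycles, and the labels do not say which pool belongs to which cycle. Zeitgeber time (ZT) 0 was lights-on and ZT12 was lights-off, so ZT14 to ZT22 lay in the dark, active phase of this nocturnal animal. Each of the 24 kidney lysates was a pool from 2 mice, and the 12 timepoints each had 2 pools. Each pool gave 1 library of total RNA (RNA-seq) and 1 library of ribosome-protected fragments (RPF-seq), which makes 48 libraries. All mice were of 1 strain and sex and were untreated, with no mutant or food-restricted group.

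Hsp70 proteins bind exposed stretches of unfolded polypeptides and release them in a cycle driven by ATP. J-domain proteins deliver the client and speed up ATP hydrolysis, and Hsp110 proteins exchange the nucleotide so that the client is let go. Hsp90 proteins receive part-folded clients such as kinases and steroid receptors from Hsp70, and Aha1-type co-chaperones stimulate the Hsp90 ATPase. Many genes of this system are known targets of heat shock factor 1, a transcription factor that binds heat shock elements built from inverted repeats of a short unit, and its activity is known to follow body temperature.

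Reads on the coding sequence were expressed as RPKM, reads per kilobase scaled to the size of the library, a measure that allows levels to be compared between genes. Effective depth, read from the steps between the lowest RPKM values, was 9900000 to 33600000 reads in the RNA-seq libraries and 15600000 to 35000000 in the RPF-seq libraries. Its median was 18800000 reads at ZT0 to ZT10 and 13400000 at ZT12 to ZT22 in RNA-seq, with 26100000 and 20200000 in RPF-seq. One library stood apart, the RPF-seq library of ZT4 replicate 2, which listed 162 genes at 0 against at most 23 in any other. Kidney tubule markers were listed, with median RNA-seq levels of 2350 RPKM for Slc34a1 (proximal tubule), 2530 RPKM for Umod (thick ascending limb) and 120.0 RPKM for Aqp2 (collecting duct). The adrenal genes Cyp11b1, Cyp11b2 and Star and the hepatocyte gene Cyp7a1 were not among the genes listed, while the other 3 hepatocyte genes had medians of 281 (Ttr), 15.2 (Alb) and 14.3 RPKM (Apoa2).

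The first question on these genes was how well short reads can tell them apart from their copies. Of all 30-base windows of the coding sequence, none of Hsph1, Dnajb1 or Dnajb4 occurred in a transcript of another gene, 3.8% did for Ahsa2 and 21.0% for Hsp90ab1. The share was 95% for Hspa8, 95.1% for Dnaja1 and 91.9% for Hsp90aa1, mostly through processed copies such as Gm15459, Gm15542 and Gm12346. For Hspa1a it was 91.3%, and 88.8% of its windows occurred in Hspa1b. The deposited values do not say how such reads were divided, so the levels of Hspa1a and Hspa1b are uncertain as separate genes and are also given as a sum.

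Heat shock elements were looked for in the promoter windows that RefSeq (GRCm38.p6) gives, in the table used here, for 7 of the 10 genes, from 250 bases before to 50 bases after a transcription start site. The other 3, Hspa8, Hsp90aa1 and Hsp90ab1, were not analysed here. The motif was a pair of inverted units, GAANNTTC or TTCNNGAA, on either strand (both forms read the same on the other strand). It was found for 5 of the 7 genes, namely Hsph1, Dnaja1, Dnajb4, Hspa1a and Hspa1b, and not for Dnajb1 or Ahsa2. It occurred in 15.1% of all 32851 windows and for 17% of all 27025 genes with a window. Among other genes of the chaperone lists described further below, the pair was found for 21 of the 88 with a window. Runs of 3 units were present for Hsph1 alone among the 7, against 0.66% of all genes and 4 of those 88 list genes. These matches are descriptions of letters and say nothing on binding. Many genes of this system are known targets of heat shock factor 1, so nothing is read from the number with a motif. The matches are printed below 5′ to 3′ on the strand of the gene, with the units in capitals. Positions are counted from a RefSeq start site. The printed Hsph1 matches are counted from different start sites. Counted from the start site of the first Hsph1 match, its 3 units lie from 36 to 48.
Hsph1 (chr5:149636351-149636380, minus strand, motif from -33 to -26): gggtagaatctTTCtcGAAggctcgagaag
Hsph1 (chr5:149636280-149636308, minus strand, 3 units from 15 to 27 after the start site): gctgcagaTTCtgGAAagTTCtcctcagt
Dnaja1 (chr4:40722333-40722362, plus strand, motif from -124 to -117): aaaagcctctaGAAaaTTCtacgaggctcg
Dnajb4 (chr3:152193841-152193870, minus strand, motif from -14 to -7): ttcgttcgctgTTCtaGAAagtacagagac
Hspa1a (chr17:34972242-34972271, minus strand, motif from -104 to -97): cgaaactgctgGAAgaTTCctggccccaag
Hspa1b (chr17:34959324-34959353, minus strand, motif from -104 to -97): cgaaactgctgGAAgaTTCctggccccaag
The 30 bases around the match were the same for Hspa1a and Hspa1b.

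All 10 genes had their highest level early to midway in the dark phase, in RNA and in footprints alike. In RNA-seq the mean of the 2 pools was highest at ZT14 for 3 genes (Dnajb1, Hspa1a, Hspa1b), at ZT16 for 4 (Hspa8, Hsph1, Dnaja1, Dnajb4) and at ZT18 for 3 (Hsp90aa1, Hsp90ab1, Ahsa2). In RPF-seq the counts were 4, 3 and 3, with Hspa8 and Dnajb4 at ZT14 and Hspa1b at ZT16. The genes of the Hsp70 arm were thus highest at ZT14 to ZT16 and those of the Hsp90 arm at ZT18, an order that is described here and was not tested.

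**Figure D1:**
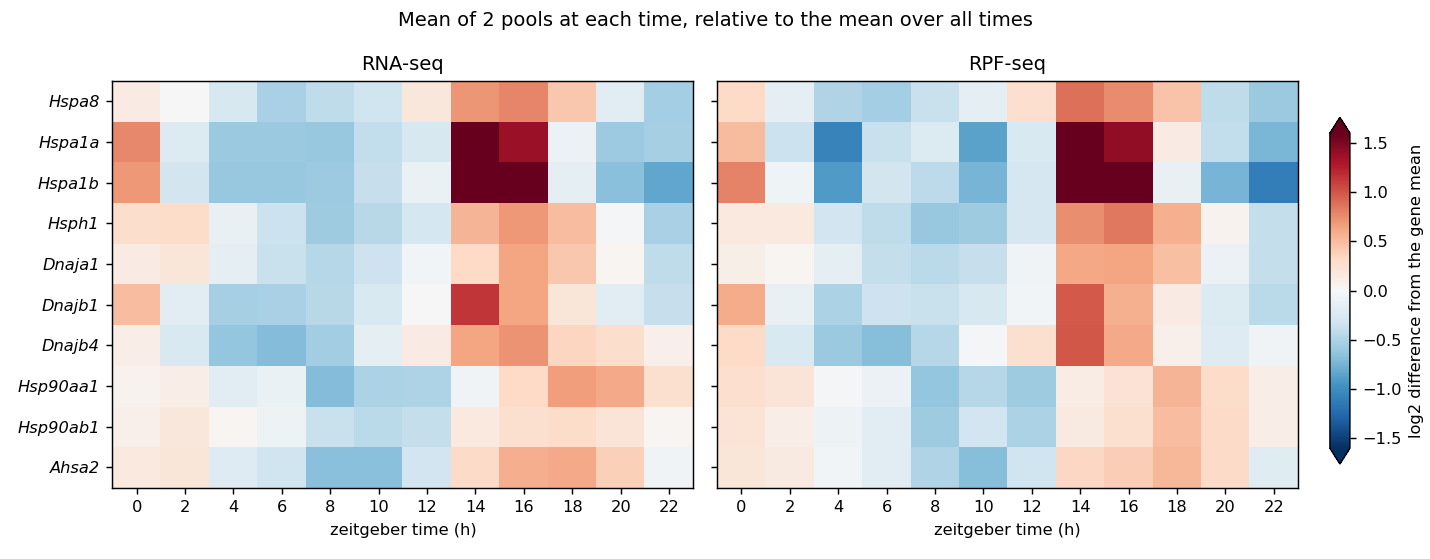
Each row is a gene and each column a zeitgeber time (h), with RNA-seq on the left and RPF-seq on the right. Colour gives the log2 of the mean RPKM of 2 pools relative to the mean over the 12 timepoints of the gene, cut at the ends of the scale. Red stands at ZT16 in all 10 rows of both assays, with Hspa1a and Hspa1b beyond the scale at ZT14, and paler red returns at ZT0.

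The daily change was summarised by a cosine of 24 h fitted to log2(RPKM + 0.1) across all 24 libraries of an assay, whose fitted peak over fitted trough is the 24-h fold. A gene was called rhythmic at a false discovery rate (FDR) under 0.05 in limma with a fold of at least 1.5, which in RNA-seq holds for 10.2% of the 11863 genes tested and in RPF-seq for 7.58%. All 10 genes passed the filter on low values. Of the 10, 9 were called in each assay, a number that the choice of genes fixes and from which nothing is read. In RNA-seq the 24-h fold of the 10 genes ran from 1.47 to 2.62, and their fitted peaks from ZT15.4 to ZT20.6. In RPF-seq it ran from 1.65 to 3.0, with peaks from ZT15.4 to ZT20.8. The median 24-h fold of the 10 genes was 1.97 for RNA and 1.91 for footprints, beside 1.2 and 1.18 over all genes tested. Hsp90ab1 lay just outside the fold in RNA-seq with 1.47 and Dnaja1 just inside with 1.56, and Hspa1b was not called in RPF-seq, where it met the fold but not the FDR.

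**Figure D2:**
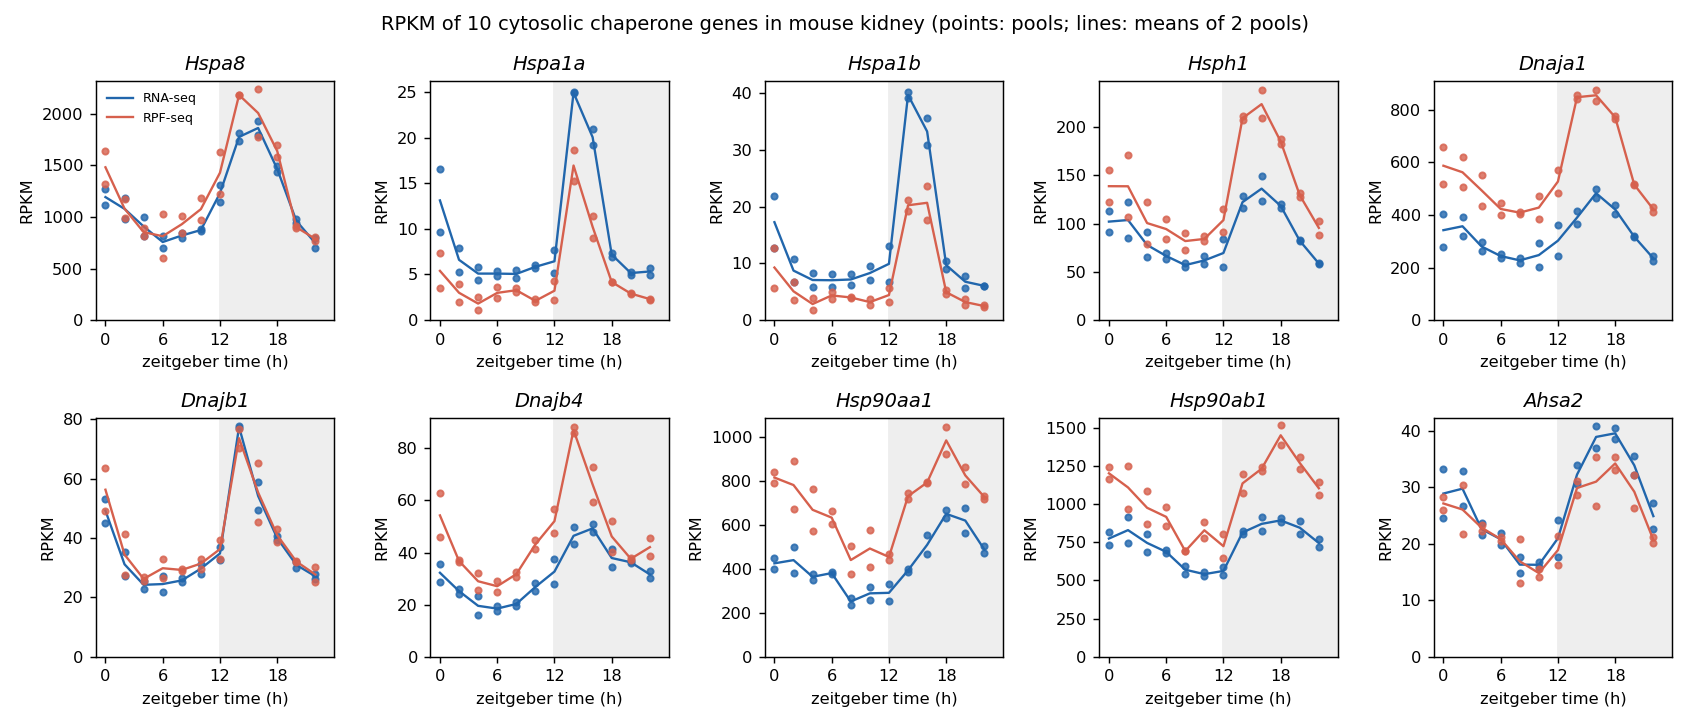
RPKM against zeitgeber time (h) for each gene, with RNA-seq in blue and RPF-seq in red, points for the 2 pools of each timepoint, lines through their means, and the dark phase shaded. The vertical axes start at 0 and differ between genes. Hspa1a and Hspa1b stand high at ZT14 and ZT16 and low at most other times, while Hsp90aa1 and Hsp90ab1 are broad and highest at ZT18.

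Hspa8 (ENSMUSG00000015656, chr9:40800984-40810087, GRCm38), the constitutive cytosolic Hsp70, was the most abundant of the 10 transcripts. Its RNA-seq level was lowest at 695.9, had a median of 992.1 and was highest at 1931 RPKM over 24 libraries. The pools gave 1149 and 1312 RPKM at ZT12, 1817 and 1735 at ZT14, 1931 and 1794 at ZT16 and 1498 and 1432 at ZT18. These pools of ZT14 and ZT16 lay above every other RNA-seq library of the gene. Its level then stood at 792.8 and 697.7 RPKM at ZT22 and at 1117 and 1268 at ZT0, with no overlap between those timepoints. Footprints had the same shape, with 2186 and 2179 RPKM at ZT14, 805.1 and 768.1 at ZT22 and 1324 and 1639 at ZT0. The 24-h fold was 1.84 in RNA-seq (log2 0.88 ± 0.18, SE) and 2.0 in RPF-seq (log2 1.0 ± 0.22, SE). Its largest gap between pools was in footprints at ZT6, at 600.5 and 1026 RPKM.

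Hspa1a (ENSMUSG00000091971, chr17:34969190-34972156) and Hspa1b (ENSMUSG00000090877, chr17:34956436-34959238) encode the stress-inducible Hsp70 and lie next to each other. They were the least abundant of the 10 genes and those with the sharpest profile. Hspa1b had RNA-seq levels of 40.2 and 39.2 RPKM at ZT14 and 30.9 and 35.7 at ZT16, against 6.71 and 13.1 at ZT12 and 10.4 and 8.97 at ZT18. Hspa1a gave 24.9 and 25 RPKM at ZT14 and 19.2 and 20.9 at ZT16, against 5.17 and 7.73 at ZT12. The 4 libraries of ZT14 and ZT16 thus stood clear of the other 20, which reached at most 16.6 RPKM for Hspa1a and 21.9 for Hspa1b, both in the second pool of ZT0. Footprints of Hspa1b were 19.2 and 21.3 RPKM at ZT14 and 17.7 and 23.7 at ZT16, and at most 12.8 in the other 20 libraries. The sum of both copies is independent of how shared reads were divided between them only if each such read was counted once, which is not known here. The sum averaged 64.6 RPKM at ZT14 and 53.3 at ZT16 in RNA-seq, against 16.4 at ZT12, 16.9 at ZT18 and 11.4 at ZT22. In footprints the sum averaged 37.2 RPKM at ZT14 and 4.77 at ZT22. Both pools agreed closely at ZT14 (64.2 and 65.1 RPKM in RNA-seq) and were further apart at ZT0 (22.3 and 38.5).

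A 24-h cosine describes such a profile poorly. For Hspa1b the fitted 24-h fold in RNA-seq was 2.62 (log2 1.39 ± 0.42, SE), while the mean at ZT14 was 6.59 times that at ZT22. Leaving out any 1 of the 4 RNA-seq libraries of ZT14 and ZT16 ended the 24-h call of both Hspa1a and Hspa1b, and leaving out ZT4 replicate 2 also ended that of Hspa1a. The values of 1 library rest on few reads when the genes are low, with 40 to 567 footprint reads recovered for Hspa1a and 64 to 881 for Hspa1b, against 99 to 822 and 114 to 1323 RNA-seq reads. One of the 2 blood markers listed moved with this peak in RNA-seq. Hba-a1, an alpha globin, stood at 65.7 to 180.0 RPKM in the 4 libraries of ZT14 and ZT16, and in the other 20 it had a median of 42.1 RPKM and a highest value of 132.0, again in the second pool of ZT0. In RPF-seq Hba-a1 gave 25 to 106.0 RPKM at ZT14 and ZT16 against 11.0 to 79.6 elsewhere. The leukocyte marker Ptprc lay within the range of the other libraries in RNA-seq, with 4.25 to 5.69 RPKM against 3.7 to 7.95. The part of blood cells in the result was not tested.

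Hsph1 (ENSMUSG00000029657, chr5:149614287-149636376) encodes the Hsp110 protein that resets Hsp70. Its RNA-seq level was 57.7 and 59.5 RPKM at ZT22, 91.1 and 113.1 at ZT0, 59.1 and 54.9 at ZT8, and 123.6 and 149.0 at ZT16. Footprints were 102.8 and 88.4 RPKM at ZT22, 122.4 and 155.3 at ZT0, 90.8 and 73.1 at ZT8, and 209.2 and 238.7 at ZT16. In both assays the pools of ZT16 lay above those of ZT8 and ZT22 without overlap, and those of ZT0 lay in between. The 24-h fold was 1.62 in RNA-seq (log2 0.7 ± 0.21, SE) and 2.0 in RPF-seq (log2 1.0 ± 0.21, SE). Pools differed most at ZT12 in RNA-seq, at 55.3 and 83.8 RPKM, and at ZT2 in RPF-seq, at 170.8 and 106.7.

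The J-domain protein genes differed in shape. Dnajb1 (ENSMUSG00000005483, chr8:83608193-83612653), the main stress-inducible partner of Hsp70, had a narrow peak, with 32.7 and 37.0 RPKM of RNA at ZT12, 77.8 and 77.2 at ZT14, and 58.8 and 49.6 at ZT16. By ZT20 its RNA-seq level was 31.9 and 30.03 RPKM, and at ZT0 it was 45.2 and 53.3, above the 28.0 and 26.2 of ZT22. Dnajb1 footprints gave 70.5 and 76.9 RPKM at ZT14 and 30.1 and 25.3 at ZT22. Its 24-h call in RPF-seq was lost on leaving out any of 11 of the 24 libraries.

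Dnajb4 (ENSMUSG00000028035, chr3:152178511-152210302), a relative of Dnajb1, was broader in RNA. Its RNA-seq level was 16 and 23.2 RPKM at ZT4, 43.2 and 49.7 at ZT14, 50.8 and 47.7 at ZT16 and still 36.7 and 35.8 at ZT20. Its footprints were highest at ZT14, with 85.9 and 88.1 RPKM, and stood at 37.2 and 38.0 at ZT20. The footprints of ZT14 lay above those of every other timepoint, while in RNA the pools of ZT14 and ZT16 overlapped. The 24-h fold of 2.29 in RNA-seq (log2 1.19 ± 0.11, SE) came with a fold of 2.01 in RPF-seq (log2 1.01 ± 0.19, SE).

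Dnaja1 (ENSMUSG00000028410, chr4:40722150-40737149), an abundant J-domain protein that also serves protein import into mitochondria, gave 219.1 and 235.3 RPKM of RNA at ZT8 and 464.9 and 500.6 at ZT16. Its footprints were 412.7 and 405.0 RPKM at ZT8, 855.2 and 840.8 at ZT14, 835.0 and 875.9 at ZT16 and 766.5 and 777.0 at ZT18. Pools agreed closely in these dark-phase footprints. In RNA they differed at ZT0 (279.6 and 404.7 RPKM) and ZT12 (242.1 and 362.1). The 24-h fold was 1.56 in RNA-seq (log2 0.64 ± 0.17, SE) and 1.68 in RPF-seq (log2 0.74 ± 0.16, SE), and leaving out ZT16 replicate 2 ended its call in RNA-seq.

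Hsp90aa1 (ENSMUSG00000021270, chr12:110690605-110702728), the inducible cytosolic Hsp90, was low late in the light phase and highest at ZT18 to ZT20. RNA-seq gave 267.7 and 234.6 RPKM at ZT8, 251.1 and 329.8 at ZT12, 384.7 and 400.6 at ZT14, 630.0 and 668.0 at ZT18 and 560.5 and 676.6 at ZT20. At ZT14, when Dnajb1 and both Hspa1 copies were highest, its RNA level was thus below that of ZT18 in both pools. Footprints were 501.6 and 377.0 RPKM at ZT8, 715.8 and 742.8 at ZT14 and 920.3 and 1045 at ZT18. The 24-h fold was 2.07 in RNA-seq (log2 1.05 ± 0.12, SE) with a fitted peak at ZT20.3 ± 0.4 h (SE), and 1.82 in RPF-seq (log2 0.86 ± 0.13, SE).

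Hsp90ab1 (ENSMUSG00000023944, chr17:45567775-45573271), the constitutive Hsp90, changed least in RNA. Its RNA-seq level was 554.5 and 527.7 RPKM at ZT10 and 879.7 and 906.7 at ZT18, and its footprints were 694.2 and 690.3 RPKM at ZT8 and 1385 and 1516 at ZT18. The pools of these timepoints did not overlap in either assay. The 24-h fold was 1.47 in RNA-seq (log2 0.55 ± 0.1, SE) and 1.72 in RPF-seq (log2 0.79 ± 0.11, SE).

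Ahsa2 (ENSMUSG00000020288, chr11:23487882-23498030), related to the Hsp90 ATPase activator Ahsa1, was expressed far below the Hsp90 genes. RNA-seq gave 16.7 and 15.8 RPKM at ZT10, 36.9 and 40.9 at ZT16 and 40.4 and 38.6 at ZT18. Footprints were 15.6 and 14 RPKM at ZT10 and 33.0 and 35.3 at ZT18. High and low timepoints did not overlap, and the 24-h fold was 2.02 in RNA-seq (log2 1.02 ± 0.14, SE) and 1.72 in RPF-seq (log2 0.78 ± 0.16, SE).

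The profiles had a second, lower high point around lights-on. Among ZT22, ZT0, ZT2 and ZT4, footprints were highest at ZT0 for all 10 genes, at 31.9% (Hspa1a) to 82.9% (Hsp90ab1) of the dark-phase maximum. In RNA-seq the highest of these 4 timepoints was ZT0 for 5 genes, ZT2 for 4 (Hsph1, Dnaja1, Hsp90ab1, Ahsa2) and ZT22 for 1 (Hsp90aa1, with no high point of its own there). Footprints of both ZT0 pools lay above both ZT22 pools for 10 of the 10 genes, as they did for 19.8% of all genes, and RNA did so for 6 of the 10, beside 23.2% of all genes. This contrast of ZT0 with ZT22 was set up after the profiles had been seen. The ratio of the means at ZT0 and ZT22 in RPF-seq was 3.76 for Hspa1b, 2.35 for Hspa1a, 2.03 for Dnajb1, 1.88 for Hspa8 and 1.45 for Hsph1, 1.39 for Dnaja1, 1.31 for Ahsa2, 1.29 for Dnajb4, 1.12 for Hsp90aa1 and 1.09 for Hsp90ab1.

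A daily curve that departs from a single cosine, through a second high point or a narrow peak, puts part of the change into a 12-h term. This term was fitted beside the 24-h terms. A 12-h term at FDR under 0.05 in limma was found in RNA-seq for 0.598% of all genes and in RPF-seq for 0.700%. It was called for 8 of the 10 genes in RNA-seq (not Dnajb4 or Hsp90aa1) and for 5 in RPF-seq (Hspa8, Hsph1, Dnaja1, Dnajb4 and Ahsa2), again among genes picked for such profiles. Its fold was 2.89 for Hspa1b, 2.54 for Hspa1a and 1.8 for Hsph1 in RNA-seq, above or near their 24-h folds of 2.62, 2.29 and 1.62. For Hsp90aa1 the 12-h fold was 1.33 beside a 24-h fold of 2.07. The 12-h terms of the 10 genes peaked between 1.4 and 5.3 h after lights-on in RNA-seq and between 1.2 and 4.2 h in RPF-seq, and again 12 h later. With both terms in the curve, fitted peaks fell between ZT14.5 and ZT18.4 in RNA-seq and between ZT13.9 and ZT17.8 in RPF-seq, fitted troughs between ZT6.3 and ZT10.1 and between ZT6.4 and ZT9.7, and the fold ran from 1.73 (Hsp90ab1) to 5.49 (Hspa1b) and from 1.92 (Hsp90ab1) to 5.89 (Hspa1b). All pools were placed on a single span of 24 h here. On such a span a 12-h term does not tell a recurring cycle of 12 h from a day with 2 unequal high points. Nor does it tell either of these from a day with 1 narrow peak, and Hspa1a and Hspa1b, with the largest 12-h folds in RNA-seq, were high mainly at ZT14 and ZT16. The RNA-seq calls were fragile. Leaving out ZT2 replicate 1, ZT14 replicate 2, ZT16 replicate 2, ZT20 replicate 2 or either library of ZT22 left 4 of the 8, and leaving out replicate 1 of ZT0, ZT4, ZT6, ZT14, ZT16 or ZT20 or either library of ZT18 left 5. In RPF-seq 3 of the 5 were left without ZT16 replicate 1 or either library of ZT22. With the pools of either replicate number alone, no 12-h term was called in limma in either assay, for these or any other genes. At an unadjusted p under 0.05, 9 of the 10 genes passed in RNA-seq with either set of pools, and 5 and 10 passed in RPF-seq. The genes were chosen on both sets of pools, and the share of all genes at this p was not taken. Nothing is therefore read from these counts.

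**Figure D3:**
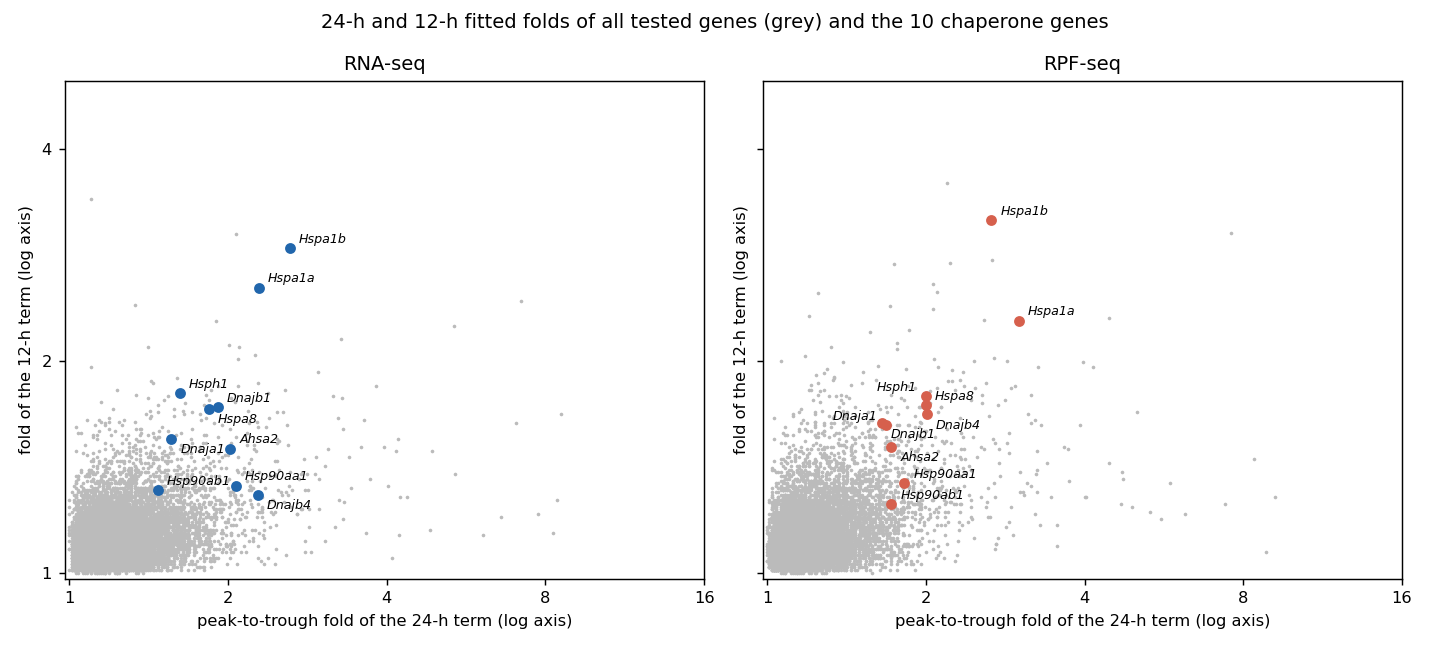
The 24-h fold (horizontal, log axis) against the fold of the 12-h term (vertical, log axis) for all tested genes in grey and the 10 chaperone genes in colour, with RNA-seq on the left and RPF-seq on the right. The axes leave out 6 genes with larger folds. Hspa1b and Hspa1a stand highest of the 10, at 12-h folds of 2.89 and 2.54 in RNA-seq, and Hsp90ab1 lies lowest in 24-h fold, at 1.47.

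Translation efficiency (TE) was taken as the RPF-seq over the RNA-seq level of the same pool. Its geometric mean over 24 pools was highest for Dnaja1 at 1.77 (log2 0.83 ± 0.16, SD), followed by Hsp90aa1 at 1.65 (0.72 ± 0.17), Hsph1 at 1.48 (0.56 ± 0.16), Dnajb4 at 1.45 (0.54 ± 0.23) and Hsp90ab1 at 1.41 (0.49 ± 0.15). The next 3 were Hspa8 at 1.09 (0.13 ± 0.19), Dnajb1 at 1.06 (0.09 ± 0.12) and Ahsa2 at 0.909 (-0.14 ± 0.17). Neighbours among the first 5 differed by at most 0.16 on the log2 scale, about 1 SD, while Hsp90ab1 with Hspa8 and Dnajb1 with Ahsa2 lay further apart than 1 SD. Hspa1a and Hspa1b were last, at 0.496 and 0.498 (log2 -1.01 ± 0.37 and -1.01 ± 0.31, SD), and their highest pools (0.762 and 0.664) lay below the lowest pools of Dnajb1 (0.907) and Hspa8 (0.808) but above the lowest pool of Ahsa2 (0.652). The median of all genes was 0.956. Dnaja1 stood at the 91.4th percentile of all genes and Hspa1a at the 16.4th. Hspa8, Hspa1a, Hspa1b, Dnaja1 and Hsp90aa1 share most of their coding windows with other genes, and the part of this in their ratios was not tested.

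Over the day the 24-h term of TE was called for 1 of the 10 genes, Hsph1, under the rule of an FDR under 0.05 in limma that 17.1% of all genes met. The genes were chosen on TE as well, so nothing is read from this count. Its TE was 1.25 and 1.4 in the pools of ZT2, and 1.64 and 1.79 at ZT14 and 1.6 and 1.69 at ZT16. These pools of ZT14 and ZT16 lay above those of ZT0 to ZT10 without exception. The fitted 24-h fold of TE was 1.25 (log2 0.32 ± 0.07, SE), with a peak at ZT16.5 ± 0.8 h (SE), close to the fitted peaks of its RNA (ZT18.3 ± 1.1 h) and footprints (ZT17.7 ± 0.8 h). Dnajb4 had a larger TE fold of 1.3 (log2 0.38 ± 0.11, SE) that was not called with all pools and was called on leaving out either pool of ZT0 or replicate 1 of ZT14. Dnajb1 was likewise called for TE without ZT2 replicate 2, ZT4 replicate 1, ZT16 replicate 1 or ZT18 replicate 2, and Hsp90ab1 without ZT10 replicate 2, each of which made the count 2 of 10. The TE of Dnajb4 was 1.77 and 1.99 at ZT14 and 1.01 and 1.06 at ZT20, with no overlap between these timepoints. In Dnajb1, by contrast, mean TE was 0.95 at ZT14 and 1.04 at ZT20. The fitted peak of footprints came 0.6 h (Hspa8, Hsph1) to 1.1 h (Dnajb4) before that of RNA for 4 genes including Dnaja1 at 0.8 h, and within 0.4 h of it for Dnajb1, Hspa1a, Hspa1b, Hsp90ab1 and Ahsa2. For Hsp90aa1 it came 0.6 h later. With 2 h between timepoints and errors of 0.4 to 1.4 h for each fitted peak, these shifts lie within the sampling interval.

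**Figure D4:**
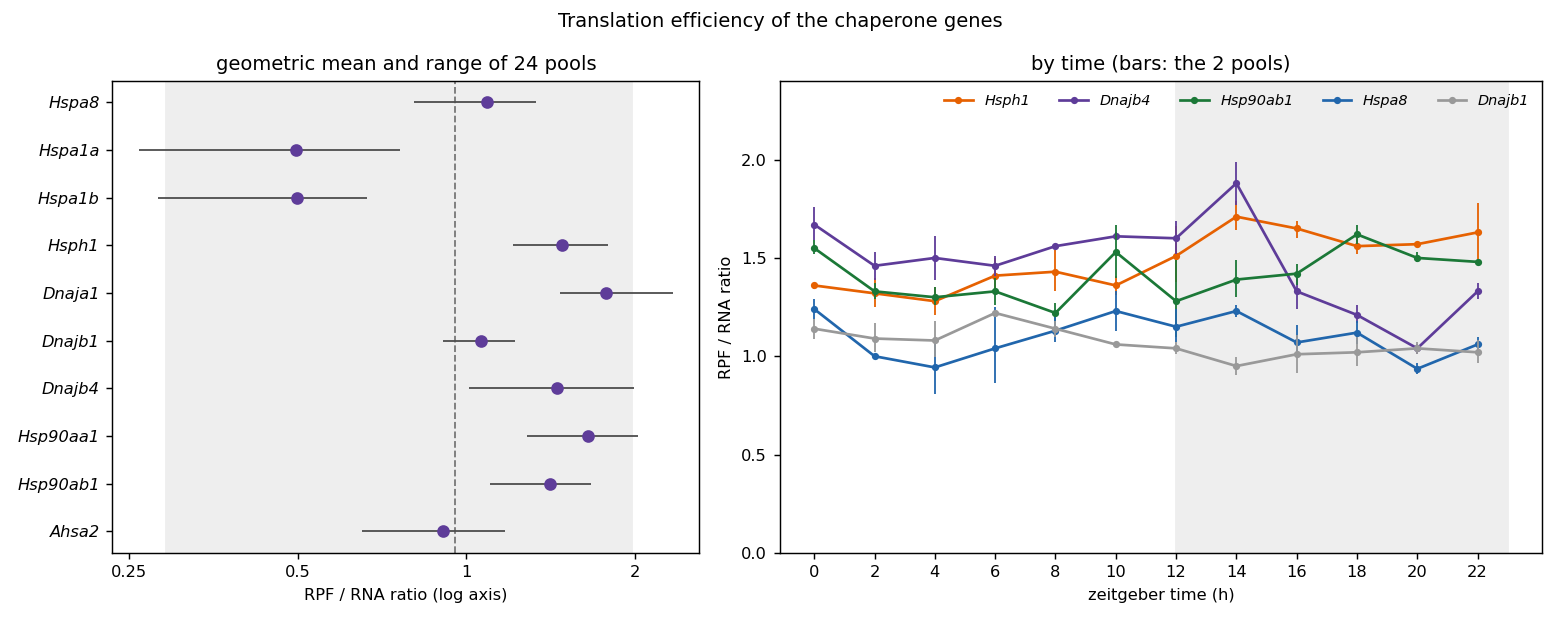
Left, the RPF-seq over RNA-seq ratio of each gene (log axis) as geometric mean (point) and range (line) over 24 pools, with the median of all genes dashed and the range from the 5th to the 95th percentile shaded. Right, the ratio by zeitgeber time (h) for 5 genes, with bars between the 2 pools and the dark phase shaded. The means of Hspa1a and Hspa1b lie left of those of the other genes, Hsph1 is highest at ZT14, and Dnajb4 drops from 1.88 at ZT14 to 1.04 at ZT20.

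The 10 profiles resembled each other to different degrees. Across 24 libraries, Pearson's r between pairs had a median of 0.71 for RNA and 0.77 for footprints over 45 pairs. It was highest for Hspa1a with Hspa1b in RNA-seq (0.98), which share reads, and for Hsph1 with Dnaja1 in RPF-seq (0.97), and lowest for Hsp90aa1 with Hspa1b in RNA-seq (0.19) and with Dnajb4 in RPF-seq (0.21). Among all other genes, the 5 most like the mean profile of the 10 in RNA-seq were Tra2a (r 0.92), Zbtb40 (0.91), Manf (0.91), Stip1 (0.9) and Mtmr4 (0.88). In RPF-seq they were Atf4 (0.94), Mtmr4 (0.93), Tra2a (0.92), Nktr (0.91) and Chordc1 (0.89). Tra2a encodes a splicing regulator, Atf4 a transcription factor of the integrated stress response, and Manf a protein of the endoplasmic reticulum (ER). Stip1 couples Hsp70 to Hsp90, and Chordc1 is an Hsp90 co-chaperone. All points share timepoint and library, so these values describe likeness and carry no test.

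The wider chaperone network was read from 10 lists of other genes, of which 99 genes were tested. In RNA-seq 22 of the 99 were called for a 24-h rhythm (22.2%, beside 10.2% of all genes) and in RPF-seq 16 (16.2%, beside 7.58%). The ER chaperones made up much of this: 11 of their 14 genes were called for RNA and 10 for footprints, with median folds of 1.7 and 1.64. Without them, 11 of 85 (12.9%) and 6 of 85 (7.06%) were called. The median 24-h fold of the 99 genes was 1.22 for RNA and 1.2 for footprints, near the 1.2 and 1.18 of all genes.

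Of the 20 Hsp90 co-chaperones, 4 were called in each assay and 3 of them in both. Chordc1 rose and fell with a 24-h fold of 2.09 in RNA-seq (log2 1.06 ± 0.15, SE, limma FDR 1.33e-05, peak ZT19.5) and 2.0 in RPF-seq (FDR 0.000117). Stip1 had a fold of 1.61 in RNA-seq (FDR 0.000286, peak ZT19.1) and Ahsa1 one of 1.55 (FDR 0.0003, peak ZT20.1), and both were also called in RPF-seq. Ppid, a peptidyl-prolyl isomerase bound to Hsp90, was called in RNA-seq with 1.65 (FDR 1.08e-05, peak ZT20.4). Fkbp5, an isomerase induced by glucocorticoids, was called in RPF-seq with 2.01 (FDR 0.000153) at an earlier peak, ZT16.1. The RNA-seq peaks of Stip1, Chordc1, Ahsa1 and Ppid, from ZT19.1 to ZT20.4, stood beside those of Ahsa2 (ZT19.3), Hsp90aa1 (ZT20.3) and Hsp90ab1 (ZT20.6), and their nearness was not tested.

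Other Hsp70-arm genes were called less uniformly. Of 5 other Hsp70 and Hsp110 genes tested, Hspa4l (an Hsp110) was called in RNA-seq with a fold of 1.59 (limma FDR 1.74e-05, peak ZT21.2) and Hspa2 (an Hsp70 best known from testis) in both assays, with 1.75 (FDR 5.34e-06) and a peak near lights-off at ZT11.6. Of 16 other J-domain genes, Dnajc27 was called in RNA-seq with 1.58 (FDR 0.0125, peak ZT3.8) and Dnaja4 in RPF-seq with 1.54 (FDR 0.00299, peak ZT18.6). None of the 9 nucleotide exchange factors and Hsp70 partners was called for a 24-h rhythm of RNA or footprints in limma, with 5 (RNA-seq) and 2 (RPF-seq) at an unadjusted p under 0.05. Bag3, a co-chaperone with a stress-inducible promoter, had an FDR of 0.0238 in RNA-seq with a fold of 1.47, just short of the minimum. Of 14 chaperonin and prefoldin genes, Pfdn2 was called in RNA-seq, with a light-phase peak at ZT8.9 (fold 1.97, FDR 2.94e-07).

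Of 5 small heat shock protein genes, Hspb1 (1.66, limma FDR 0.0328, peak ZT18.3) and Hspb6 (1.51, FDR 0.0385, peak ZT8.9) were called in RNA-seq and none in RPF-seq, where 1 had an unadjusted p under 0.05. None of 7 mitochondrial chaperone genes was called for a 24-h rhythm in limma in either assay, with 4 and 3 at an unadjusted p under 0.05. The genes Hspd1 and Hspe1 share a promoter that holds overlapping runs of 3 heat shock units. Their 24-h folds were 1.11 and 1.46 in RNA-seq and 1.18 in RPF-seq for both. In RNA-seq Hspe1 met the FDR (limma, 0.00135, peak ZT18.9) but fell just short of the fold minimum, and Hspd1 met neither (FDR 0.368). Overlapping runs of 3 units were also found for Chordc1, which was called in both assays, with a fold of 2.09 in RNA-seq. A link between motif and rhythm was not tested. Of 6 other known heat shock factor targets, Cacybp was called in RNA-seq (1.67, FDR 9.78e-05, peak ZT20.8).

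The factors themselves changed little. Hsf1 had a 24-h fold of 1.18 in RNA-seq (limma FDR 0.19) and 1.16 in RPF-seq (FDR 0.35), and Hsbp1, which binds and restrains it, had 1.09 (FDR 0.543) and 1.04 (FDR 0.838). Hsf2 passed the FDR in RNA-seq (0.000599) with a fold of 1.34, below the minimum, and a peak at ZT19.8. Hsf4 was not among the genes listed. These are levels of RNA and footprints, and heat shock factor 1 is known to be controlled mainly after it is made. Lists of cold-inducible and immediate early genes gave other daily signals at these times. Cirbp, an RNA-binding protein induced by mild cold, was called with a fold of 3.1 in RNA-seq (FDR 5.6e-06) and a peak at ZT7.4, within the span of the fitted troughs of the 10 chaperone genes, and Rbm3 with 1.74 (FDR 2.87e-05) and a peak at ZT13.4. Of 6 immediate early genes, Ier3 was called with 2.8 (FDR 2.61e-06, peak ZT15.1) and Junb with 1.76 (FDR 0.000799, peak ZT9.1) in RNA-seq, and both were called in RPF-seq.

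**Figure D5:**
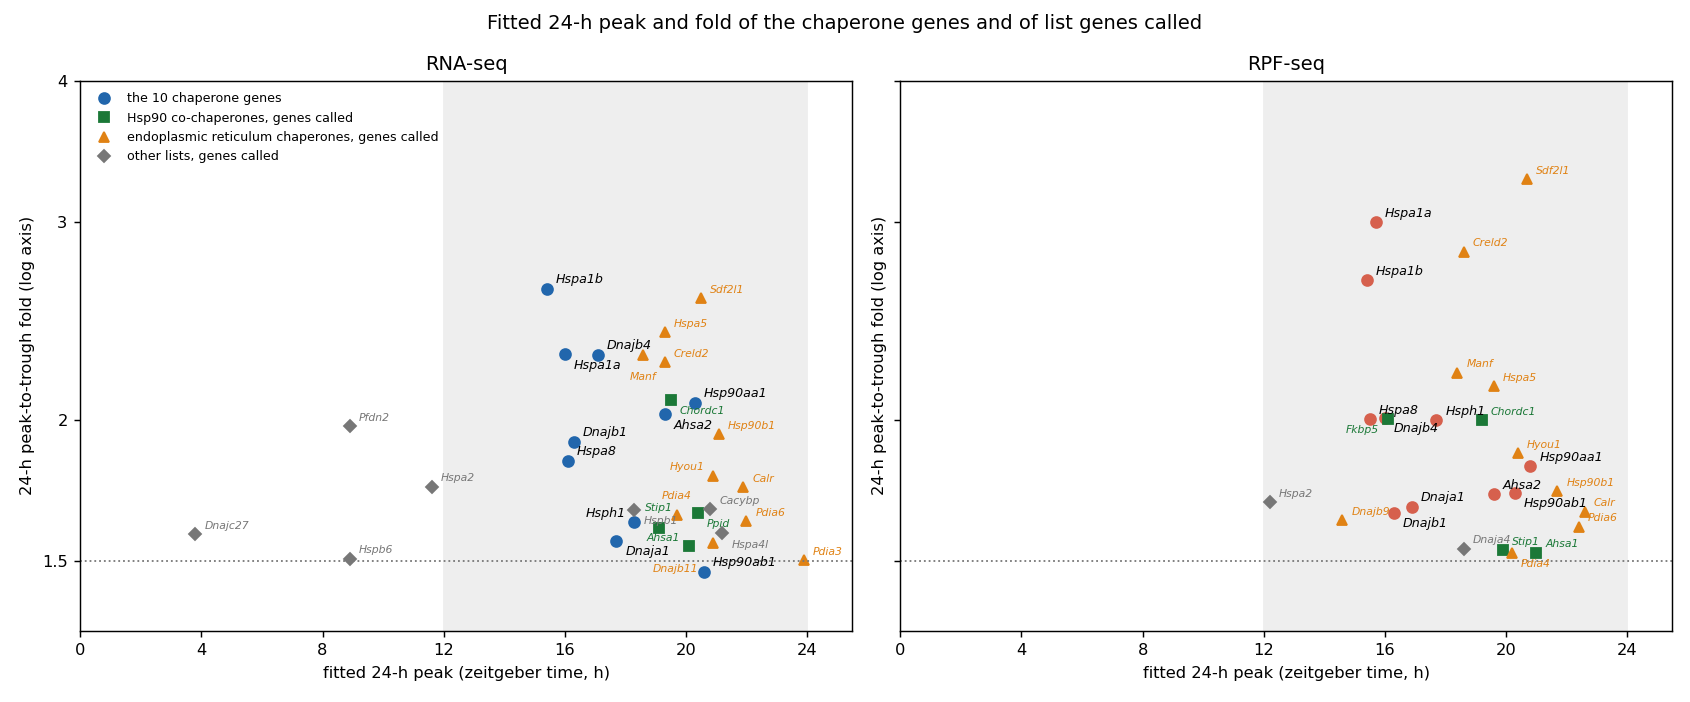
Fitted 24-h peak (zeitgeber time, h) against 24-h fold (log axis) for the 10 chaperone genes (circles, all shown) and for the genes of the other chaperone lists that were called, with RNA-seq on the left and RPF-seq on the right. The dotted line is the fold minimum of 1.5 and the dark phase is shaded. Most list genes called lie between ZT18 and ZT24, while Hspa8, Hspa1a, Hspa1b and Dnajb1 lie at ZT15.4 to ZT16.3 in RNA-seq.

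The 12-h term was also called in other genes of the lists, 9 of 99 for RNA and 12 of 99 for footprints. These shares were 9.09% and 12.1%, beside 0.598% and 0.700% of all genes. Without the ER chaperones, 3 of 85 (3.53%) and 5 of 85 (5.88%) were called. In RNA-seq the 9 genes were 6 ER chaperones (among them Hspa5, Manf and Creld2) and the Hsp90 co-chaperones Stip1, Ahsa1 and Fkbp4. Stip1 had a 12-h fold of 1.42 (limma FDR 0.00331) that peaked 3.9 h after lights-on and again 12 h later. In RPF-seq the 12 genes included Chordc1 (1.59, FDR 0.00204, peak 3.0 h) and 7 ER chaperones. None of the mitochondrial, chaperonin or heat shock factor genes was called for a 12-h term in limma, where the mitochondrial list had 1 gene at an unadjusted p under 0.05 in each assay, the chaperonin list 4 and 2, and the heat shock factors 0.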

How the data were processed

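Reads of both assays were trimmed, filtered by size and mapped in turn to rRNA, tRNA, mouse cDNA and the genome (GRCm38.p2), with Bowtie2 2.2.1 and TopHat2 2.0.11 per the submitters' processing notes. The authors counted reads on the coding sequence and deposited RPKM values after upper quantile normalisation in edgeR, 1 table per library. The treatment of reads that match several genes is not given in the sources used here. From these RPKM values, genes listed in both assays with a median of at least 0.5 RPKM in each were kept (11863), log2(RPKM + 0.1) was taken, and cosine and sine terms of 24 h, and of 12 h beside them, were fitted across all 24 libraries of an assay with limma 3.58.1 (moderated F test, Benjamini-Hochberg adjustment over all genes kept). Folds on this scale understate the change of low genes. TE was fitted in the same way on the difference within a pool, and a TE term compares RPF-seq with RNA-seq. The scripts were tested on simulated data.

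Effective depth was found from the spacing of low RPKM values of genes with 1 coding length, of which at least 98.8% per library lay within 0.1 of a whole read. Promoter windows came from RefSeq (GRCm38.p6) and coding sequences and gene positions from the GRCm38 annotation. The members and the gene lists were chosen with earlier results of these data known. Named are all 10 members, the heat shock factors, per list up to 4 genes called with the largest fold, and the 5 genes most like the members in each assay. Ahsa1, Fkbp4, Bag3, Hspd1 and Hspe1 were named after their values were seen. Pools come from separate mice, so the unit is a pool of 2 animals. The p-values rest on the spread of pools around the fitted curve, which includes any misfit of the curve to the timepoint means. Alternatives tried were other pseudocounts (1 and 0.01), another or no filter on low values, another FDR or fold minimum, quantile normalisation, a replicate block, a 12-h harmonic in the 24-h fit, each set of pools alone and leaving out each library in turn.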

Additional observations from a re-analysis of the deposited data

Results flagged for a closer look

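For 5 of the list genes named, the daily change of footprints and of RNA differed by the test of the difference itself, the 24-h term of TE (limma, FDR under 0.05 over all genes, met by 17.1% of them). Over the 99 genes of the chaperone lists, which do not include Junb, 17 (17.2%) met it. Hspb6 had a TE fold of 1.93 (FDR 0.0251), with RNA highest at ZT8.9 and TE at ZT18.9. Pfdn2 had 1.69 (FDR 0.00148), with RNA highest at ZT8.9 and TE at ZT21.1. The others were Junb with 1.54 (FDR 0.00782), Fkbp5 with 1.48 (FDR 0.00761) and Dnaja4 with 1.28 (FDR 0.0254). Hsph1 had a TE fold of 1.25, given as a description because the 10 genes were chosen on these values. With either set of pools alone, 0 of the 10 members and 0 of the 99 list genes passed this test in limma, beside 0% and 0.0169% of all genes. At an unadjusted p under 0.05 there were 1 and 3 members, and 15 and 17 list genes. The share of all genes at this p was not taken, so nothing is read from these counts. Groups of 2 pools are too small for a test of outlying samples.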

How the results depend on the processing

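Counts of members and list genes called were stable to the pseudocount, the low-value filter (except TE) and quantile normalisation, and sensitive to the number of pools. The share of all genes with a 24-h rhythm moved more. It was 6.58% in RNA-seq and 4.97% in RPF-seq with a pseudocount of 1, against 10.2% and 7.58% in the main setting. With a median of at least 2 RPKM it was 8.61% and 6.49%. With 1 pool per timepoint, the members called for a 24-h rhythm fell from 9 to 4 and 5 in RNA-seq and from 9 to 2 and 4 in RPF-seq, for TE from 1 to 0 and 0, and for the 12-h term from 8 (RNA-seq) and 5 (RPF-seq) to 0 and 0. List genes called went from 22 to between 19 and 23 in RNA-seq, from 16 to between 10 and 14 in RPF-seq and from 17 to 0 for TE. Of all genes, 6.09% and 12.1% were then called in RNA-seq, 3.12% and 7.19% in RPF-seq and 0% and 0.0169% for TE. The fall for TE thus held across all genes, and nothing is read from it on these genes. A fold minimum of 2 left 5 members in RNA-seq and 3 in RPF-seq and 5 list genes in each, beside 1.93% and 1.77% of all genes. With no fold minimum 55 and 51 list genes were called, beside 48.6% and 30.9% of all genes. At FDR under 0.01, 4 members kept a 12-h call in RNA-seq and 2 in RPF-seq, beside 0.126% and 0.118% of all genes. A TE call was kept by 7 list genes, beside 4.72% of all genes. TE members called were 2 with a median of at least 2 RPKM and 2 with a 12-h harmonic added, beside 21.0% and 18.3% of all genes tested. Leaving out 1 library at a time gave 6 to 10 members with a 24-h rhythm in RNA-seq (6 without ZT16 replicate 2) and 8 to 10 in RPF-seq, 4 to 9 with a 12-h term in RNA-seq and 3 to 7 in RPF-seq, 1 to 2 for TE, and 19 to 23 (RNA-seq), 13 to 18 (RPF-seq) and 11 to 20 (TE) list genes, where 11 was without pool ZT8 replicate 1.

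Replicate numbers did not pair the pools across timepoints (mean correlation of replicate differences 0.029 in RNA-seq and 0.02 in RPF-seq), and with a replicate block 9 and 9 members were called for a 24-h rhythm, 1 for TE, and 7 and 5 for the 12-h term. Depth limited Hspa1a and Hspa1b most, with 40 footprint reads in the lowest library. Of 350 comparisons of a single gene's fold, peak or TE with an alternative, 306 moved by less than the pool spread or the error of the peak. Of the other 44, 36 were the change from a 24-h cosine to a curve with a 12-h term.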
